A study of Mus musculus with 9 samples.

Results

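Ion channel genes of the sodium, calcium, potassium and hyperpolarization-activated (HCN) families were compared between mouse neural stem cells with a deletion in Smchd1, a chromatin protein known for its part in X inactivation and in silencing clustered autosomal genes, and cells that kept it. The genes were taken by symbol from the deposited expression table: Kcn genes with a family letter from a to v and a number, Scn genes with a number and an a or b, Cacna1, Cacna2d, Cacnb and Cacng genes, and the 4 Hcn genes. Kcnq1 was left out by this rule. The rule gave 122 genes of the 25899 symbols in the table: 79 potassium, 26 calcium, 13 sodium and 4 HCN genes. They fill 123 rows, because Scn4a is listed in 2 rows. The gene known as Scn2a is listed as Scn2a1, which the rule does not take, so its values are given separately.

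Voltage-gated channels are membrane proteins whose pore opens when the voltage across the membrane changes; sodium and calcium entry depolarizes a cell and potassium exit returns it to rest. Pore-forming alpha subunits work with accessory subunits that set their delivery to the membrane and their gating. Neural stem cells do not fire trains of action potentials, but they carry a strongly potassium-permeable membrane, and many channel genes rise as their progeny become neurons or glia. The symbols also take in relatives that are not opened by voltage: the inward rectifiers (Kcnj), the leak channels (Kcnk), the calcium- or sodium-activated channels (Kcnn and Kcnt), and gamma subunits (several Cacng genes) better known as partners of glutamate receptors.

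RNA was sequenced in 9 libraries of C57BL/6 neural stem cells derived from Smchd1 fl/fl embryos at embryonic day 14.5. The 4 Smchd1 del/del libraries are female lines 1, 2 and 3 and male line 5; these cells had received the retrovirus MSCV-Cre-puro, which carries the Cre recombinase that removes the floxed part of Smchd1, were selected in puromycin, and were harvested on day 7 after transduction. The 5 Smchd1 fl/fl libraries are female lines 1, 2 and 3 and male lines 5 and 7, from untransduced cells. Loss of Smchd1 therefore cannot be told apart from retroviral transduction and puromycin, which only the del/del cells had. The series' design text calls all the lines female and the control genotype del/fl; the sample labels, which give sex and genotype for each library, were followed. Lines 1, 2, 3 and 5 each gave a del/del and a fl/fl library, and the sources do not say whether a line stands for 1 embryo.

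By the scaling constants of the table, library depth ran from 24.1 M to 116.6 M reads; female fl/fl 2 was the shallowest, with 12.9 M reads in listed genes against 32.9 M to 44.9 M in the others. Of the 9 libraries, 6 carry the prefix RNA- in their descriptions and 3 (female del/del 1, female fl/fl 1 and male fl/fl 7) do not, and the labels do not say what the prefix stands for. Smchd1 itself stood at a level of 5.04 to 5.36 log2 RPM (RPM, reads per M reads of the library) in del/del and 6.16 to 6.81 in fl/fl, and fell by 1.19 on the log2 scale (SE 0.148, limma adjusted p = 0.00751). Neural stem cell markers were present in all libraries, at a summed 574 to 773 RPM over 12 genes in del/del and 540 to 1083 RPM in fl/fl. Among 6 skeletal and heart muscle markers, 4 were expressed and none passed the test, with 1 at an unadjusted p under 0.05 and 0 called with voom weights. Of 7 fibroblast and mesenchymal markers, 2 were expressed and neither passed. Acta2 lay at 5.17 to 5.72 log2 RPM in del/del and 4.60 to 5.68 in fl/fl, and Tagln at 3.96 to 4.42 against 3.54 to 4.23. Under the filter, Col1a1 reached 2.53 and Col1a2 2.67 in their highest del/del library, against 0.06 and 0.58 in fl/fl. Lum had no read in any library. Less RNA per cell and fewer cells with that RNA cannot be told apart in such bulk samples.

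Kcna4 passed the test of del/del against fl/fl described below. Its window in the RefSeq promoter table, 250 bases before to 50 after the start on GRCm38.p6, is shown with those of Kcnj10 and Kcnf1, which are potassium channel genes whose del/del levels also lay wholly above their fl/fl levels, because the windows differ in makeup. Capitals mark the GC box GGGCGG, or CCGCCC where it lies on the other strand.
Kcna4: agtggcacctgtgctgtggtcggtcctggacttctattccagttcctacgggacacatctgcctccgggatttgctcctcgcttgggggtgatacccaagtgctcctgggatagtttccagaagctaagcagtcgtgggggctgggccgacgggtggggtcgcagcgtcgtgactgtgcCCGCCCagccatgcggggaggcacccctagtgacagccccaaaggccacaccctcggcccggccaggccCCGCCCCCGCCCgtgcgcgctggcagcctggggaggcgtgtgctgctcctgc
Kcnj10: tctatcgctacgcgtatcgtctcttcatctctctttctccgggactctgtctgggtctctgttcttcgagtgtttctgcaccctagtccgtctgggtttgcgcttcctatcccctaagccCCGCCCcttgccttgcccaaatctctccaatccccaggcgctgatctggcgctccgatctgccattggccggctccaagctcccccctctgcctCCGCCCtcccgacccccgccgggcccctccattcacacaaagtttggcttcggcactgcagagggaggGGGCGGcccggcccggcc
Kcnf1: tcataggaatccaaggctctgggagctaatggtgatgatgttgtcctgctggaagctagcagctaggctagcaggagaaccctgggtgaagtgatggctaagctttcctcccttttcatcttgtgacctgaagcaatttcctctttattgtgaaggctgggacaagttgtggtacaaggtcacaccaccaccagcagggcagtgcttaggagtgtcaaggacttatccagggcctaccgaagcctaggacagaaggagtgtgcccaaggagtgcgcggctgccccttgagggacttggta
The Kcna4 window lies at chr2:107290339-107290638 on the + strand and holds 3 GC boxes and 20 CpG dinucleotides, with a directly adjacent pair of boxes near its 3′ end. The Kcnj10 window lies at chr1:172340960-172341259 on the + strand and holds 3 boxes and 21 CpG. The Kcnf1 window lies at chr12:17176839-17177138 on the - strand and holds 3 CpG and none of these letters. Of all 32851 windows in the table, 35.7% hold the box on either strand and the median CpG count is 7. A window was found for 87 of the channel genes. The 69 windows of genes that were expressed by the filter below had a median of 17 CpG and 52.2% held the box; the 44 windows of genes under the filter had a median of 9 CpG and 40.9% held it. These are descriptions of letters and say nothing about a bound factor.

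Every one of the 122 genes had at least 1 read in some library, and 100 of the 123 rows had a read in all 9. A gene was counted as expressed when its level was at least 0 log2 RPM, that is 1 RPM, in at least 3 libraries. By this filter 68 channel genes were expressed, 55.3% of their rows against 54.1% of all 25965 rows. The share was 18 of 26 calcium genes, 43 of 79 potassium genes, 2 of 4 HCN genes and 5 of 14 sodium rows. Within the calcium class all 4 alpha2delta and all 4 beta genes, which are accessory subunits, passed, against 6 of 10 alpha1 pore genes and 4 of 8 gamma genes. Within the potassium class the filter kept 26 of 39 Kv pore genes, 5 of 7 ion-activated genes, 6 of 15 inward rectifier genes, 6 of 14 leak channel genes and none of the 4 Kcne accessory genes. In the sodium class 3 of 9 alpha genes and 2 of 4 beta genes passed, among them Scn3a, Scn8a and Scn3b. Of the 55 rows under the filter, 18 had at most 10 reads in any library. Just under the filter, Kcnh4, an ether-a-go-go related potassium channel, lay between -1.04 and 0.32 log2 RPM, and Scn1a, a sodium channel of inhibitory neurons, between -1.07 and 0.20.

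**Figure D1:**
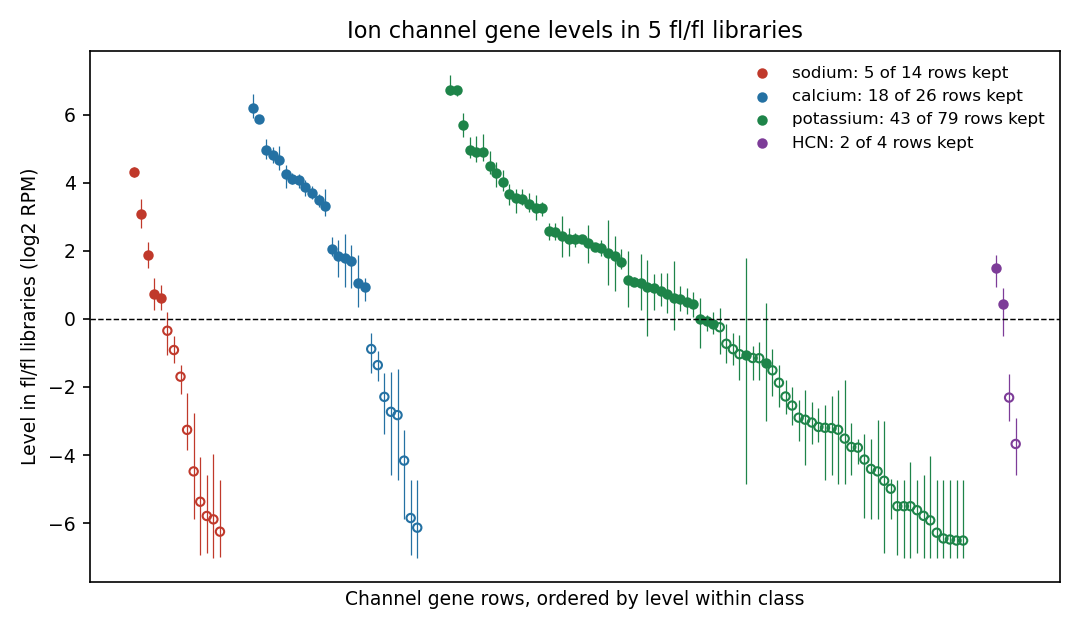
Mean level of each channel gene row in the 5 fl/fl libraries (points, log2 RPM) with the lowest and highest library (lines), ordered within class; filled points passed the filter on low values, open points did not, and the dashed line marks 0 log2 RPM. Levels are not divided by gene length, so heights compare a gene with the filter and not with its neighbours; 5 of 14 sodium rows and 18 of 26 calcium rows were kept.

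To compare genes with one another, the mean fl/fl level was divided by the length of the union of a gene's annotated exons. On that scale the highest were Cacng7, a gamma subunit, at 12.7 RPM per kb, the A-type channel Kcnd3 at 11.1, the fast delayed rectifier Kcnc1 at 11.1 and the A-type channel Kcnd2 at 10.2. The gamma subunit Cacng4 followed at 7.90, the inward rectifier Kcnj16 at 7.64 and Cacna1h, a T-type calcium channel pore, at 6.05. Divided by the whole gene span instead, the order changed: Kcnd2 moved from rank 4 to 38, and Kcnc1 stayed at rank 3. The sources used here do not say whether reads in introns were counted.

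Of the 68 expressed channel genes, 3 rose in del/del over both sexes and none fell (limma, Benjamini-Hochberg adjusted p under 0.05 over 14044 expressed genes). This main fit did not use the pairing of del/del and fl/fl libraries by line, which the line block below takes in. Kcna4, a rapidly inactivating A-type potassium channel, was among the 3 and was 1.45-fold higher. Over all genes 1.55% were called, 1.45% as rises and 0.0997% as falls. By class, 2 of 5 sodium genes, 1 of 43 potassium genes, 0 of 18 calcium genes and 0 of 2 HCN genes passed. At an unadjusted p under 0.05 the counts were 4, 13, 7 and 0, of which 22 were higher and 2 lower, beside 9.84% of all genes. With voom weights on the recovered reads, limma called 4 channel genes, beside 1.88% of all genes, adding Kcnj10, and again 0 calcium and 0 HCN genes.

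With the line number as a block, 14 channel genes rose and none fell, beside 3.99% of all genes called: among them Kcna4, Kcnj10, Kcnt1, Kcnh7, Kcnc4, Kcna5, Kcna1, Kcnf1, Kcnn2, Cacna1a and Scn3b. This count holds both Kcna1 and Kcna5, though the Kcna1 row lies inside the Kcna5 row. When the libraries were also centred on their medians, the blocked fit called 3, beside 1.78% of all genes, with Kcna5 and without Kcna4. Without male del/del 5, 0 channel genes passed and 2 of all genes did. Without female del/del 1, 2 or 3, or female fl/fl 3, 1 channel gene passed, beside 54 to 135 of all genes, and without male fl/fl 5 there were 2, beside 117; Kcna4 was not among them. With quantile normalization 1 channel gene passed, beside 0.741% of all genes.

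**Figure D2:**
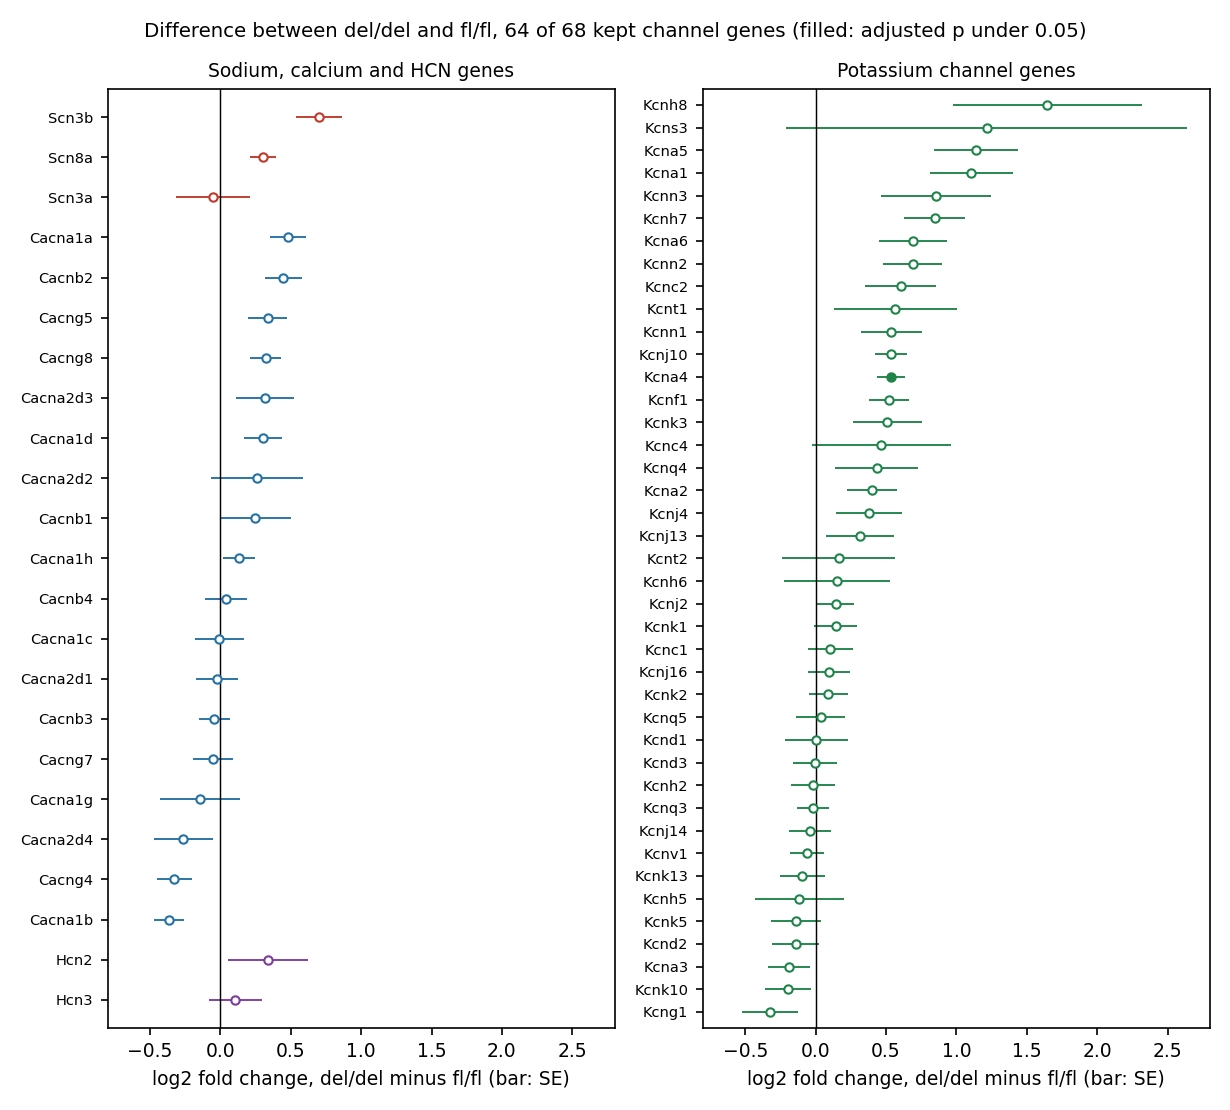
Log2 fold change of del/del against fl/fl over both sexes for 64 of the 68 expressed channel genes (points) with its standard error (bars); red is sodium, blue calcium, purple HCN and green potassium, and filled points have a limma adjusted p under 0.05. The filled point is Kcna4, and the widest bar belongs to Kcns3.

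Scn3b, an accessory beta subunit, did not pass (log2 fold change 0.70, SE 0.163, limma adjusted p = 0.0763). Its levels were 2.41 to 2.74 log2 RPM in del/del and 1.49 to 2.25 in fl/fl, so the groups did not overlap. With the line block its adjusted p was 0.0171. Scn8a, the pore of the main sodium current at the axon initial segment, also separated without passing: 4.63, 4.54, 4.50 and 4.72 in del/del against 4.35, 4.35, 4.17, 4.23 and 4.45 in fl/fl, a log2 fold change of 0.30 (SE 0.0945, limma adjusted p = 0.218). Scn3a, the pore of embryonic neurons, did overlap, at 0.38 to 0.92 in del/del and 0.25 to 1.20 in fl/fl (log2 fold change -0.05, SE 0.264).

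Summed over the class, sodium channel RNA was 51.0 to 57.4 RPM in del/del cells and 33.4 to 43.5 RPM in fl/fl cells. Those ranges did not overlap. Alpha genes summed to 30.8 to 34.2 RPM in del/del against 22.8 to 27.9 in fl/fl, and beta genes to 20.1 to 24.6 against 9.87 to 15.6. The class sum takes in the 2 sodium genes that passed and both Scn4a rows and is not divided by gene length. It is therefore not a result separate from those genes. Scn2a1, outside the rule, lay at 0.48 to 0.85 log2 RPM in del/del and -0.27 to 0.31 in fl/fl, higher in del/del in all 4 lines, with a log2 fold change of 0.65 (SE 0.212) that did not pass (limma adjusted p = 0.248). Rest, the repressor of many neuronal channel genes, differed by 0.10 on the log2 scale (SE 0.106, adjusted p = 0.997).

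**Figure D3:**
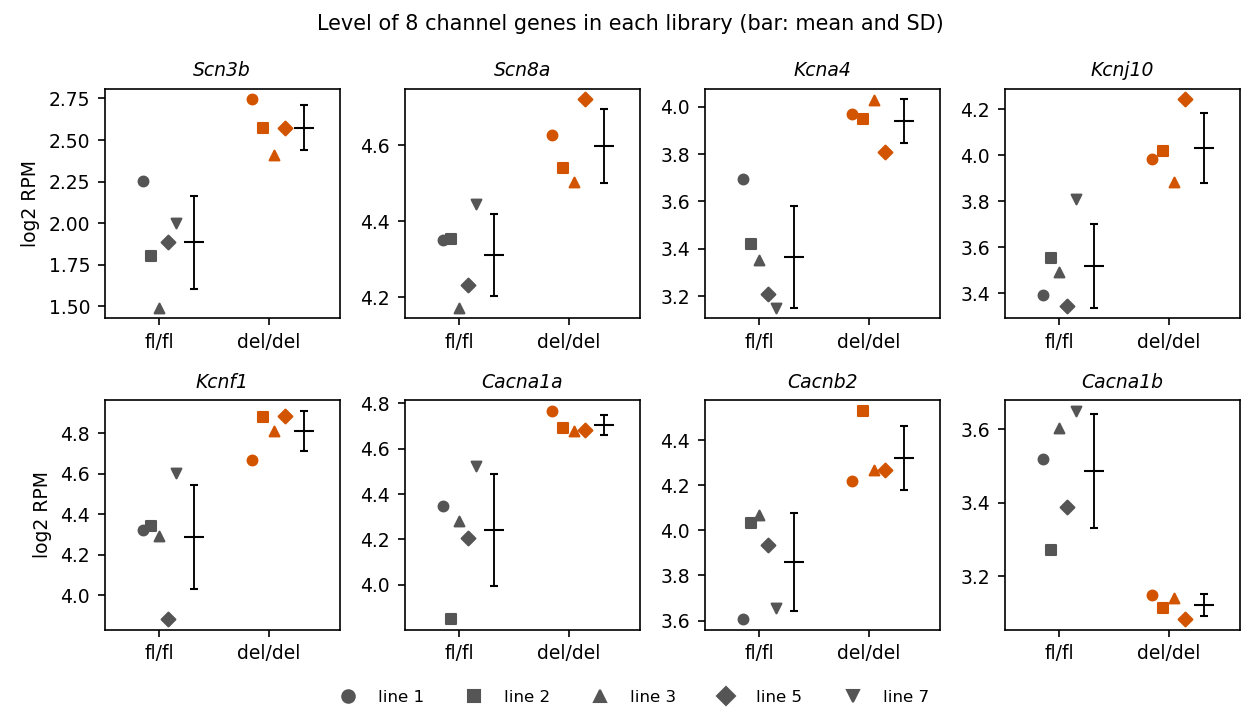
Level of 8 channel genes in each library (log2 RPM), with marker shape for the line and the mean and SD of each genotype beside the points. The del/del points of Cacna1b lie below all fl/fl points and those of the other 7 genes lie above; of the 8, Kcna4 passed the test.

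Kcna4 lay at 3.97, 3.95, 4.03 and 3.81 log2 RPM in del/del lines 1, 2, 3 and 5, and at 3.70, 3.42, 3.35, 3.21 and 3.15 in fl/fl lines 1, 2, 3, 5 and 7. The groups did not overlap, and female fl/fl 1 came closest to the del/del libraries. This was a log2 fold change of 0.53 (SE 0.0997) with a limma adjusted p of 0.0309. Its row begins at 107290639, directly after the promoter window shown above, and overlaps no other row. The call was lost in 11 of 20 other settings, with adjusted p from 0.0208 to 0.286 over all 20, while the log2 fold change stayed between 0.48 and 0.61.

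Kcnj10, the inward rectifier of astrocytes and oligodendrocytes, lay at 3.98, 4.02, 3.88 and 4.24 in del/del and 3.39, 3.55, 3.49, 3.34 and 3.81 in fl/fl. Its log2 fold change of 0.54 (SE 0.114) missed the threshold (limma adjusted p = 0.0529), and it passed in 6 of 20 other settings, among them the line block (0.0328) and median centring (0.0442). Of 8 expressed astrocyte markers, Slc1a2, Gfap and Aqp4 rose, by 0.66, 2.07 and 1.66 on the log2 scale, and none fell, beside 1.55% of all genes called. At an unadjusted p under 0.05 there were 4, beside 9.84% of all genes, and voom weights called 3, beside 1.88%. Over all 8 markers the median log2 fold change was 0.48, with 7 above and 1 below 0. All 8 together summed to 290 to 384 RPM in del/del and 228 to 431 RPM in fl/fl. Nefm and Nefl, 2 neurofilament genes, rose among the 10 neuron markers that were expressed, and none fell. In that list 4 had an unadjusted p under 0.05 and voom weights called 2. The median log2 fold change of the 10 was -0.08, with 5 above and 5 below 0. Above 0 were Nefm (1.49), Nefl (1.25), Gad1 (0.80), Elavl3 (0.31) and Snap25 (0.01). Below 0 were Rbfox3 (-0.50), Tubb3 (-0.36), Syt1 (-0.33), Syp (-0.30) and Dcx (-0.18). The listed neuron markers summed to 140 to 159 RPM in del/del and 104 to 124 RPM in fl/fl. Gad2, Stmn2, Slc17a7 and Slc17a6 were under the filter. Of these, Gad2 lay at -0.48 to 0.36 log2 RPM in del/del and -2.60 to -1.47 in fl/fl. Stmn2 had a mean of -1.67 against -4.38, and Slc17a7 one of -2.34 against -2.27. Slc17a6 had at most 2 reads in any library. The part of these glial and neuronal genes in the channel results was not tested.

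Other potassium genes separated without passing. Kcnf1, a silent subunit that modifies Kv2 channels, lay at 4.67 to 4.88 in del/del and 3.88 to 4.60 in fl/fl (log2 fold change 0.52, SE 0.142, limma adjusted p = 0.134). Kcnh7, an ether-a-go-go related channel, lay at 1.03 to 1.68 against 0.24 to 0.95 (log2 fold change 0.85, SE 0.217, adjusted p = 0.111); its row overlaps that of Gca, with which it may share reads. Both passed with the line block, at adjusted p of 0.0443 and 0.0258.

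Kcna5 and Kcna1, delayed rectifiers of the Kv1 family, cannot be read as 2 results. The Kcna1 row lies entirely inside the Kcna5 row, which is longer, and carries the same transcript identifier, and they hold 2856 and 3051 reads over the 9 libraries. The Kcna5 row lay at 1.88 to 2.70 in del/del and 0.33 to 2.00 in fl/fl (log2 fold change 1.14, SE 0.297, limma adjusted p = 0.117; 0.0184 with the line block). Female fl/fl 3 was above male del/del 5, so the groups overlapped.

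In fl/fl the potassium class summed to 518 to 658 RPM and in del/del to 588 to 698 RPM, ranges that overlap. The highest fl/fl sum belonged to female fl/fl 2. The 3 potassium genes with the highest fl/fl level did not pass: the log2 fold change was -0.01 (SE 0.157) for Kcnd3, 0.11 (SE 0.159) for Kcnc1 and -0.14 (SE 0.165) for Kcnd2, all with adjusted p above 0.99. The sign of Kcnd3 turned in 5 of 20 other settings and that of Kcnc1 in 2. All 5 expressed ion-activated channel genes (Kcnn1, Kcnn2, Kcnn3, Kcnt1 and Kcnt2) had log2 fold changes above 0, beside 48.9% of all genes, with a median of 0.57. None passed, and 2 had an unadjusted p under 0.05, beside 9.84% of all genes. With quantile normalization 4 of the 5 were above 0, beside 44.2% of all genes. Without female fl/fl 2 all 5 were above 0, beside 73.7% of all genes, and their median was 0.40.

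No calcium channel gene passed in the main fit. Cacna1a, the pore of the P/Q-type current at many synapses, was at 4.77, 4.69, 4.68 and 4.68 log2 RPM in del/del and 4.35, 3.85, 4.28, 4.21 and 4.52 in fl/fl. Its del/del libraries lay within 0.1 of one another and above all fl/fl libraries (log2 fold change 0.48, SE 0.13, limma adjusted p = 0.132; 0.0472 with the line block). Cacna1b, the pore of the N-type current, ran the other way, at 3.15, 3.11, 3.14 and 3.08 against 3.52, 3.27, 3.60, 3.39 and 3.65 (-0.36, SE 0.105, limma adjusted p = 0.171). It was the single expressed channel gene whose del/del levels lay wholly below the fl/fl levels.

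Cacnb2, a beta subunit that carries L-type channels to the membrane, lay at 4.22 to 4.53 against 3.61 to 4.07 (log2 fold change 0.45, SE 0.13, limma adjusted p = 0.17). Cacng8, a gamma subunit known as a glutamate receptor partner, lay at 3.92 to 4.15 against 3.52 to 3.91 (0.32, SE 0.109, adjusted p = 0.271). The rows of Cacna1a and Cacnb2 each overlap a row of an unnamed predicted gene. Of the 3 calcium genes with the highest fl/fl level, Cacna1h differed by 0.13 (SE 0.112), Cacna2d1 by -0.03 (SE 0.15) and Cacng7 by -0.05 (SE 0.141), and the sign of Cacna2d1 turned in 6 of 20 other settings and that of Cacng7 in 2. Calcium class sums were 334 to 389 RPM in del/del and 304 to 365 RPM in fl/fl and overlapped.

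The HCN channels carry the pacemaker current and are opened by hyperpolarization. Hcn2 lay at 0.33 to 0.92 in del/del and -0.50 to 0.90 in fl/fl (log2 fold change 0.34, SE 0.284, limma adjusted p = 0.984). Hcn3 lay at 1.51 to 1.61 against 0.93 to 1.86 (0.11, SE 0.189, limma adjusted p = 0.997), and female fl/fl 2 was the lowest library for both. Without that library the difference was 0.08 for Hcn2 and -0.05 for Hcn3. Hcn4 was under the filter, with 3 to 34 reads per library.

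Across the 68 expressed genes the median log2 fold change was 0.20, with 47 (69.1%) above 0, beside -0.004 and 48.9% over all 14044 genes. The median was 0.70 for the 5 sodium genes, 0.16 for the 43 potassium genes, 0.08 for the 18 calcium genes and 0.22 for the 2 HCN genes. With quantile normalization it was 0.10 over all expressed channel genes and -0.004 for the HCN genes. Leaving out female fl/fl 2 moved the median of all genes to 0.08 and that of the channel genes to 0.22, and the shares above 0 were then alike, 73.5% of the channel genes and 73.7% of all genes.

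The del/del levels lay wholly above the fl/fl levels in 12 expressed channel genes (17.6%), beside 5.53% of all genes, and wholly below in 1, beside 0.99%. Without female fl/fl 2, a setting added after the data were seen, the share wholly above was 19.1% of the channel genes beside 11% of all genes. The 12 were 4 of the 5 sodium genes, 3 calcium genes and 5 potassium genes. Within lines, 29 of the 68 genes (42.6%) were higher in del/del in all 4 pairs, beside 17.9% of all genes, and 2 were lower in all 4, beside 4.05%. Without line 2, also added after the data were seen, 55.9% were higher in all 3 pairs, beside 52.5% of all genes, and 7.35% lower, beside 5.19%. The pairs share the scaling of their libraries and the genes share the libraries, so these shares carry no test.

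**Figure D4:**
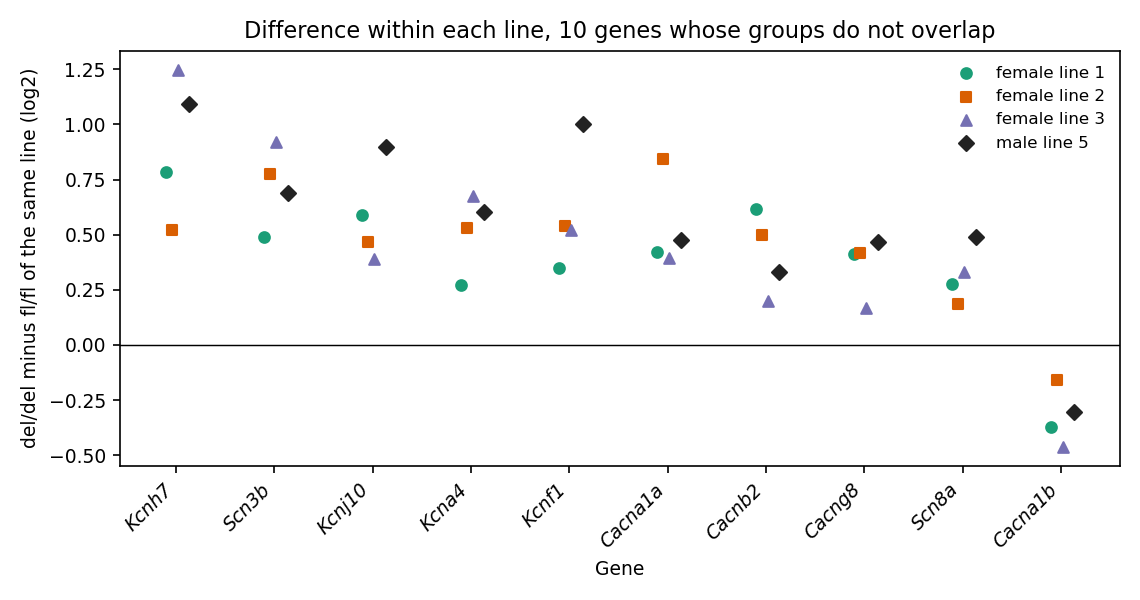
Difference between the del/del and fl/fl library of the same line (log2) for 10 of the 13 expressed channel genes whose genotype ranges did not overlap, with 1 point for each of 4 lines. All points of the 9 higher genes shown lie above 0 and all 4 points of Cacna1b lie below; the Kcna4 differences run from 0.27 in line 1 to 0.68 in line 3.

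The 6 libraries with the RNA- prefix hold 3 del/del and 3 fl/fl libraries. Fitted alone they called 2 channel genes, beside 1.28% of all genes. Kcna4 differed there by 0.60 with an adjusted p of 0.0585. Line 1 was the pair without the prefix, which allows no test; its difference was 0.27 for Kcna4, 0.59 for Kcnj10 and 0.49 for Scn3b. With the prefix as a covariate 6 channel genes rose, among them Kcna4, Kcnj10, Cacna1a and Scn3b, beside 2.83% of all genes.

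The prefix moved with the level of Kcns3, a silent subunit of Kv2 channels. It lay at 0.70 to 1.78 log2 RPM in the 6 libraries with the prefix and at -1.96, -4.87 and -3.68 in female del/del 1, female fl/fl 1 and male fl/fl 7. It had the largest SD of any expressed channel gene among fl/fl libraries, 2.99, followed by Kcnh8 with 1.39 and Kcnc4 with 0.92. Kcnc4, a fast A-type channel, differed by line: line 3 and line 7 held its highest levels, 1.44 to 1.98, and the fl/fl libraries of lines 1, 2 and 5 held -0.34 to 0.31. Within each of the 4 lines its del/del library was higher, by 0.54 to 1.03.

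**Figure D5:**
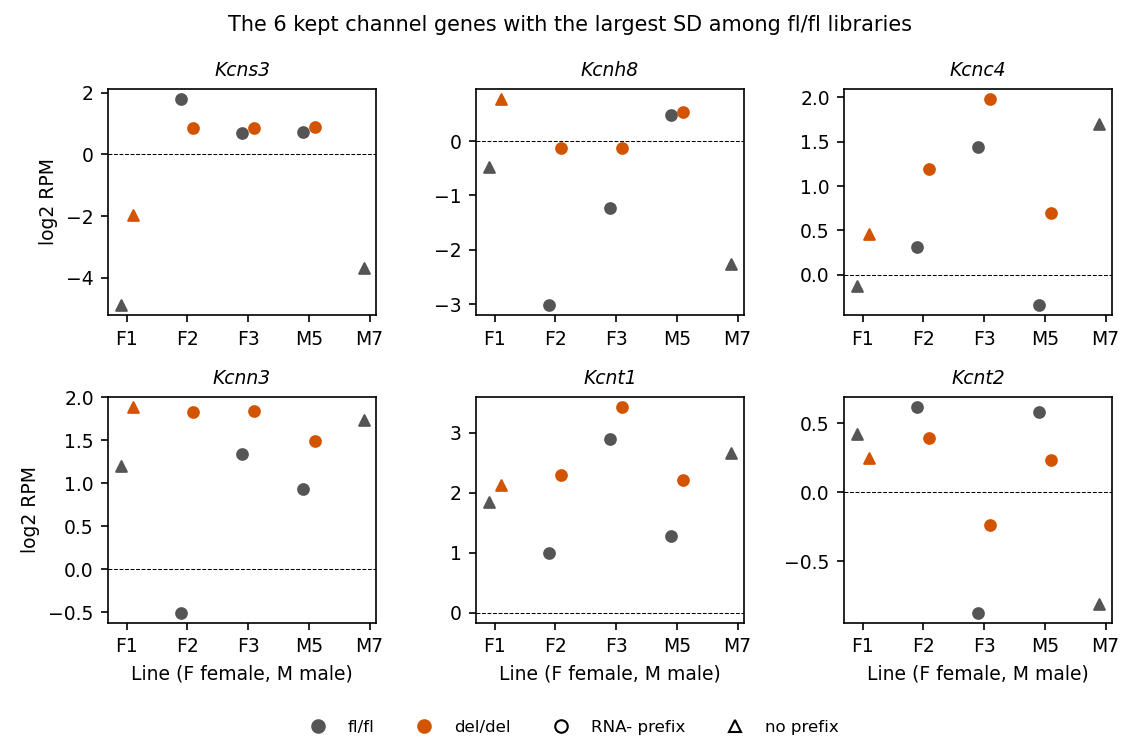
Level (log2 RPM) by line of the 6 expressed channel genes with the largest SD among the fl/fl libraries, in grey for fl/fl and orange for del/del, with circles for libraries with the RNA- prefix and triangles for those without. The 3 triangles of Kcns3 lie far below its circles, while for Kcnc4 and Kcnt1 the fl/fl levels span more than any difference within a line.

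In the female lines alone no channel gene passed (0.0142% of all genes were called), with 17 at an unadjusted p under 0.05, beside 6.52% of all genes, and 1 called with voom weights, beside 0.199%. The male contrast, 1 del/del library against 2 fl/fl libraries with the spread taken from all groups, called 0 channel genes beside 0% of all genes, with 7 at an unadjusted p under 0.05, beside 2.63%. The difference between the female and the male effect called 0, beside 0% of all genes, and no channel gene had an unadjusted p under 0.05, beside 0.0427%; the male effect rests on 1 del/del library. The 2 smallest p-values in limma were those of the leak channel Kcnk1 (difference 0.60, SE 0.297) and the silent subunit Kcng1 (0.65, SE 0.4), both with a limma adjusted p of 1. The Kcna4 effect was 0.49 in females and 0.63 in males, a difference of -0.14 (SE 0.235). Kcnd1, the expressed X-linked member, differed by 0.01 (SE 0.225, limma adjusted p = 0.999).

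None of the 55 rows under the filter passed when the filter was lifted, which called 1.23% of 22321 rows. Of these rows, 5 separated all the same, with higher levels in every del/del library, beside 3.71% of the 8277 rows of the table that were under the filter and had a read; Cacna1e, Cacna1i, Kcnj11 and Scn2b were among them, a choice made after their values were seen. Cacna1e, the R-type pore, had 46 to 127 reads in del/del and 11 to 57 in fl/fl. Scn2b had 5 to 7 reads in del/del and at most 4 in fl/fl, counts too low to set a level.

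The genes that work with these channels were read from a list of 44 partners outside the rule (ankyrins, Kv auxiliary subunits and others), of which 42 were found and 33 were expressed. None rose and none fell, beside 1.55% of all genes called. At an unadjusted p under 0.05 there were 8, beside 9.84% of all genes. With voom weights none was called, beside 1.88% of all genes, and with the line block 5 were, beside 3.99%. Ank3, the ankyrin that anchors sodium channels at the axon initial segment, lay at 5.08 to 5.45 in del/del and 4.21 to 4.96 in fl/fl (log2 fold change 0.72, SE 0.157, limma adjusted p = 0.0614). Kcnma1, the large-conductance calcium-activated channel, lay at 4.33 to 4.93 against 4.07 to 4.31 (0.41, adjusted p = 0.187).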

How the data were processed

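The deposited table holds log2 RPM per gene and library; per the submitters' processing notes bcl2fastq, TopHat2 2.0.12, edgeR 3.8.2 and build mm10 were used, while how reads were counted, on which strand and over which annotation was not given in the sources used here. Dividing the antilog of the deposited log2 values by a constant for each library returned whole read numbers (within 0.05 reads) for at least 99.9961% of rows; the authors had entered 0.9 in place of 0 reads.

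Genes at 0 log2 RPM or more in at least 3 libraries (14044 of 25965 rows) were tested in limma 3.58.1 (R 4.3.3), with a trended prior, genotype and sex as terms, all 9 libraries in 1 fit, and Benjamini-Hochberg adjustment over all tested rows at a threshold of 0.05. A model of the 4 group means gave the effects within each sex and their difference. Fold changes are differences of log2 RPM. The script was tested on simulated data. The sources do not say whether libraries of 1 genotype came from separate embryos, so p-values measure the spread between these libraries. Lines with the same number come from 1 split culture per the labels' protocols. Same-line deviations correlated at 0.868, 0.582 and 0.758 in females, though del/del 2 with fl/fl 3 gave 0.729 and del/del 3 with fl/fl 2 gave 0.494. Pairs of line 1 with line 2 or 3 gave -0.841 to -0.572. Among the female lines only line 1 lacked the RNA- prefix, so these correlations cannot tell its pairing from the prefix.

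The channel genes, markers and partners were chosen with earlier results of these data known. Named were Smchd1, each channel gene that passed, the 4 smallest p-values and 3 highest fl/fl levels of each class, up to 10 genes whose groups did not overlap, and the 2 smallest p-values for the sex difference; the Kcna1, Kcns3 and other extremes are named as such. The marker lists not given beside a result called no gene: neural stem cell (12 expressed), oligodendrocyte lineage (7), microglia and leukocyte (2), fibroblast (2) and endothelium (2). At an unadjusted p under 0.05 these had 0 genes, except 2 for endothelium, and voom called 0. The line block called 1 endothelium gene and none in the other lists named here. Alternatives were log2(RPM + 1), no filter and a stricter one, quantile normalization, median centring, voom weights on recovered reads, no sex term, the prefix as covariate or alone, the line block and leaving out each library. Promoter windows are from RefSeq, GRCm38.p6; exon lengths are from GENCODE vM21. Some channel genes are counted in the totals but not reported here by name.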

Additional observations from a re-analysis of the deposited data

Results flagged for a closer look

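Of the 52 tests of single libraries, 26 named genes in each genotype, 5 set 1 library apart; chance gives about 1 in 20. Hcn2 was lowest in female fl/fl 2, at -0.50 log2 RPM, with the next fl/fl library at 0.54. Cacna1a was highest in female del/del 1, at 4.77, with the next del/del library at 4.69. Cacnb2 was highest in female del/del 2, at 4.53, with the next at 4.27. Kcnd3 was highest in female del/del 1, at 6.98, with the next at 6.69, and in female fl/fl 2, at 7.16, with the next fl/fl library at 6.63.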

How the results depend on the processing

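Of the alternatives run on single genes, 443 kept direction and side of the threshold, 18 gained a call, 21 lost one and 17 turned sign; no called gene turned sign, and the cause was not tested. Channel genes called were 3 in all and 1 with quantile normalization, 6 with the prefix as covariate, 14 with the replicate block and 0 to 4 without 1 library. Sodium genes were 2, and 1 with quantile normalization or median centring and 0 to 3 without 1 library. Potassium genes were 1, and 0 with quantile normalization or the prefixed libraries alone, 2 with voom or the prefix as covariate, 10 with the replicate block and 0 to 2 without 1 library. Calcium genes were 0, and 1 with the prefix as covariate or the replicate block. All genes were 217, and 104 with quantile normalization, 398 with the prefix as covariate, 561 with the replicate block and 2 to 252 without 1 library, the lowest without male del/del 5. Females called 0 channel genes, beside 2 of all genes, and 1 with voom, beside 28 of all genes. With log2(RPM + 1) they called 1 channel gene and with the replicate block 4. Over all genes the female calls of these last settings are not given here, so those counts cannot be set against a share. Signs turned, all in values near 0, for Hcn3 (-0.085 with quantile normalization, -0.052 to 0.185 without 1 library), Cacna2d1 (0.021 with quantile normalization, 0.022 with no sex term, 0.025 with the replicate block, -0.140 to 0.065 without 1 library), Cacng7 (-0.128 to 0.044 without 1 library), Kcnd3 (0.056 with quantile normalization, 0.018 with no sex term, -0.072 to 0.118 without 1 library) and Kcnc1 (-0.028 with the prefixed libraries alone, -0.020 to 0.198 without 1 library). In the marker lists the replicate block called 3 neuron genes, beside 2 in the main fit, and 1 endothelium gene, beside 0. The channel, potassium and female counts with the replicate block hold both Kcna1 and Kcna5, whose rows overlap. Depth limits the genes under the filter, 18 of which had at most 10 reads in any library.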
